A study of Mus musculus with 8 samples.

Results

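The 31 genes described here encode nuclear receptors of liver and fat, and they were taken by gene symbol from a fixed list out of 24462 gene symbols measured in every library. They cover the RXR genes (Rxra, Rxrb, Rxrg), the xenobiotic receptors (Nr1i2, Nr1i3) and the hepatocyte receptors Hnf4a, Hnf4g and Nr5a2. Also covered are the lipid and vitamin receptors Ppard, Vdr and Rora and the retinoic acid receptors (Rara, Rarb, Rarg). Next are the thyroid hormone receptors (Thra, Thrb), the steroid receptors Esr1, Pgr and Nr3c2 and the oestrogen-related receptors (Esrra, Esrrb, Esrrg). Last are the NR4A receptors (Nr4a1, Nr4a2, Nr4a3) and the orphan receptors Nr2c1, Nr2c2, Nr2f1, Nr2f2, Nr2f6 and Nr6a1. The 31 genes were set by symbol and not by a rule on measured values. Earlier results of these data were known when they were chosen. RNA was sequenced from the liver and the subcutaneous fat of male C57BL/6 mice that went onto an HFD (high fat diet) at 6 weeks of age and stayed on it for 19 weeks, with age at collection labelled as postnatal week 24. WT and MKRN1-null mice were compared, with 2 libraries for each genotype in each tissue (8 in all). MKRN1 is an E3 ubiquitin ligase, and the question here was what its loss does to liver and fat of mice on an HFD. The labels name the genotype of the null mice as MKRN1 KO with no further allele. Every mouse of the 4 groups was on the HFD, so no value here describes mice on a chow diet. The paper reports that male MKRN1-null mice on an HFD weighed less than WT mice. Their livers resembled those of chow-fed mice in size and shape. Genotype and body weight or liver fat therefore cannot be told apart in the comparisons below.

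Nuclear receptors are transcription factors, many of which are switched by small fat-soluble ligands such as bile acids, retinoids, thyroid hormone, steroids and fatty acids. Many of them bind DNA as a heterodimer with RXR at repeats of the half-site AGGTCA, whereas HNF4A binds as a homodimer and NR4A or oestrogen-related receptors can bind as monomers or dimers. In liver they set bile acid, drug, lipid and glucose metabolism, and in fat they govern adipocyte differentiation, lipid storage and oxidative capacity. Their mRNA level is only part of their activity, since ligand and coregulators act on the protein.

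Levels are FPKM (fragments per kilobase of transcript, scaled to the mapped fragments of the library), a level corrected for length, summed over the transcripts of a gene. Differences are log2 fold changes on the log2(FPKM + 1) scale, which understates the change of low genes, and were tested by limma over all genes with an FPKM of at least 1 in at least 2 libraries of the fit. A receptor was called at an adjusted p under 0.05, and counted separately within the study limits, which are the paper's limits of an unadjusted p up to 0.05 and a log2 fold change of 0.58 or more in either direction. The libraries held 5.72 to 9.24 Gb of aligned bases, and depth limits the precision of scarce receptors. Mkrn1 itself was at 9.42 and 10.1 FPKM in WT livers against 2.86 and 2.21 in null livers, and at 16.8 and 19.3 in WT fat against 4.58 and 2.90 in null fat. Hepatocyte markers were high in all livers and adipocyte markers in all fat libraries. MKRN1-null fat replicate 2 stood apart, with 8 skeletal muscle markers summing to 73956 FPKM (13.9% of all FPKM) against 28.7 to 199 in the other 3 fat libraries, and its level correlated with that of the other null fat library at r = 0.82 across genes, against 0.98 to 0.99 for the other 3 groups. For the receptors of fat that the text turns on, log2 differences are therefore also given without it. In bulk tissue, fewer cells of a type and less RNA per cell cannot be told apart.

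In WT mice 18 of the 31 receptors reached an FPKM of 1 in all 4 libraries, 5 did so only in both livers (Nr1i2, Nr1i3, Hnf4a, Nr5a2, Nr6a1), 1 only in both fat libraries (Nr2f1) and 7 in neither pair. The low group held Hnf4g, Vdr, Pgr, Esrrb, Esrrg, Nr4a2 and Nr4a3, and 4 of the 31 stayed below 1 in all 8 libraries. The whole set summed to 502 and 412 FPKM in the WT livers and to 303 and 229 in WT fat. Hnf4a alone made up 22.3% and 23.7% of this sum in the WT livers, whereas in WT fat the leading receptor was Nr4a1 in replicate 1 and Thra in replicate 2. Of the 24 receptors that could be tested between WT liver and WT fat, 16 were called, 8 higher in liver and 8 higher in fat, against 80.2% of all 12782 genes tested (17.9% higher in liver and 62.3% higher in fat). Nr1i2, Nr1i3, Hnf4a, Nr5a2 and Nr6a1 passed the filter through liver alone and Nr2f1 through fat alone, so the direction of their calls was fixed beforehand. By the study limits 13 were counted, against 64.9% of all genes. The groups did not overlap for 18 of the 24, against 91.0% of all genes tested. The median log2 difference, liver minus fat, was -0.09 for the receptors and -0.59 for all genes, and the dot plot of levels shows every library.

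**Figure D1:**
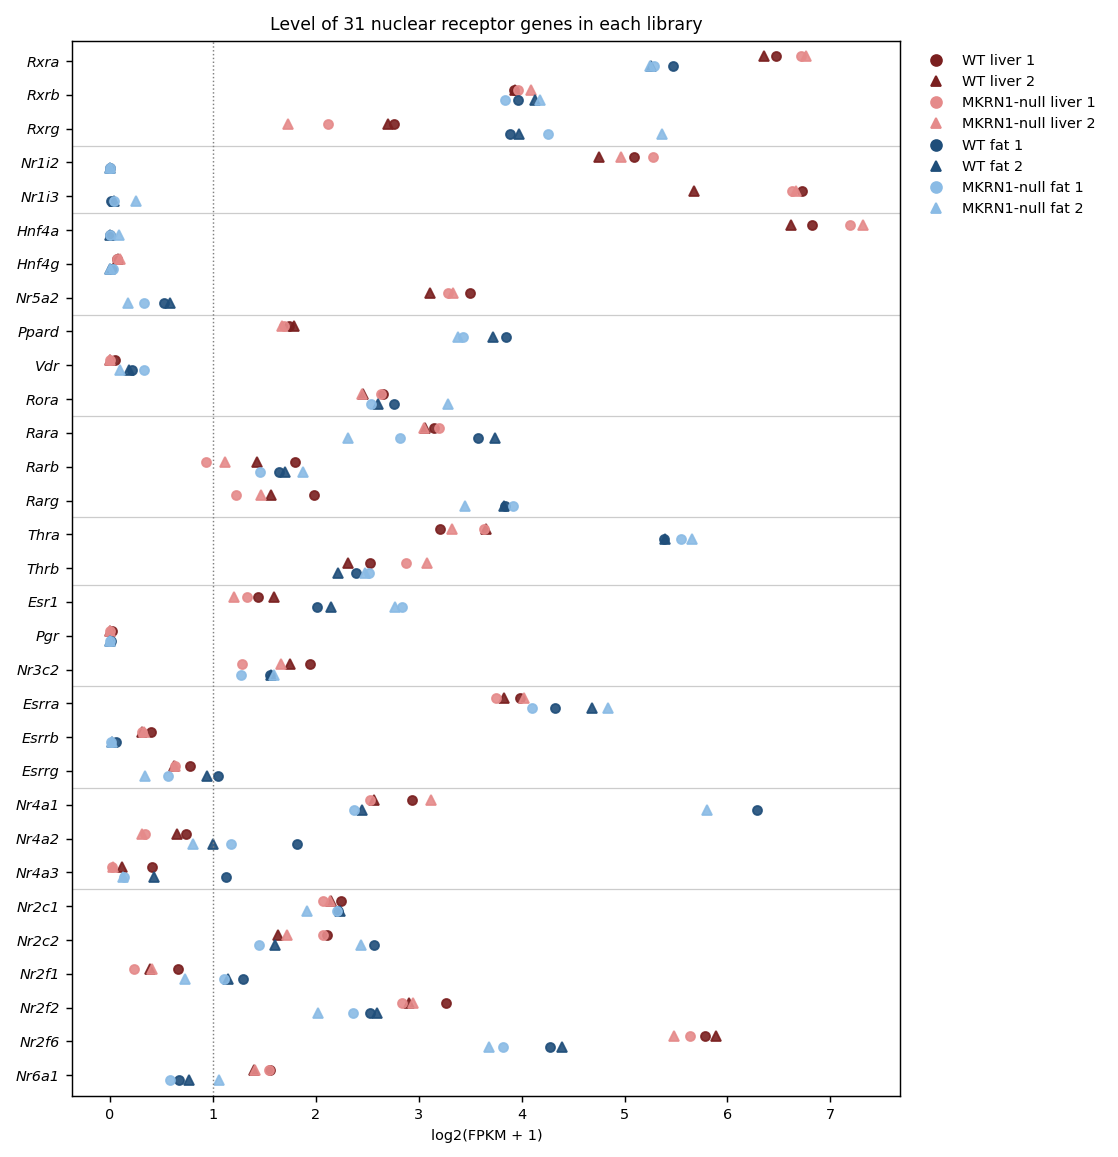
Level of each of the 31 receptor genes on the log2(FPKM + 1) scale in each of the 8 libraries, with liver in red and drawn above fat in blue, WT dark and MKRN1-null light, circles for replicate 1 and triangles for replicate 2. The dotted line marks an FPKM of 1; Nr1i2, Nr1i3 and Hnf4a sit at or next to 0 in fat, while Ppard, Thra and Rarg are higher in fat.

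Because FPKM was not rescaled between tissues, the direction of small tissue differences depended on the scaling. With median-of-ratios scaling the median of all genes moved from -0.59 to -0.01, and 13 receptors were called higher and 4 lower in liver, where quantile normalization gave 14 and 4. Relative to the median of all genes, each log2 difference between tissues given below is larger by 0.59 in favour of liver.

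The hepatocyte receptors showed the widest separation. Hnf4a, a master regulator of hepatocyte genes, was at 112 and 97.5 FPKM in the WT livers and listed at 0 in both WT fat libraries. Nr1i3, which encodes the xenobiotic receptor CAR, was at 105 and 50.2 FPKM in WT liver and at 0.00768 and 0.0271 in WT fat. Nr1i2, which encodes the xenobiotic receptor PXR, was at 33.2 and 25.9 FPKM in WT liver and listed at 0 in all 4 fat libraries. Liver and fat did not overlap for any of the 3, and the log2 differences were 6.72 for Hnf4a, 6.18 for Nr1i3 and 4.92 for Nr1i2. Within WT liver Nr1i3 was the least even of them, with replicate 1 above replicate 2. An exon of 257 bases of Nr1i3 is shared with Tomm40l on the opposite strand, and the libraries did not record strand, but the exons of Nr1i3 alone gave the same order (98.8 and 47.6 units of coverage per Gb aligned in WT liver). Nr5a2, which encodes LRH-1, a regulator of bile acid and cholesterol genes, was at 10.3 and 7.63 FPKM in WT liver. In WT fat Nr5a2 was at 0.435 and 0.494 FPKM (log2 difference 2.75, SE 0.16). Hnf4g, the paralog of Hnf4a, stayed between 0.0455 and 0.0665 FPKM in all livers and at most at 0.02 in fat.

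Hnf4a (mm10, chr2:163506857-163572907, plus strand) has an upstream start called P2 and a downstream start called P1, which make proteins with different N termini, and P1 is the start known from adult liver. The bases just upstream of both starts are shown because read coverage separated them in every liver. Each line gives 250 bases upstream of an annotated transcript start in RefSeq GRCm38.p6, 5′ to 3′ on the plus strand, with matches to GTTAAT (the core of an HNF1 site) or AGGTCA (a nuclear receptor half-site) on either strand in capitals.
Hnf4a P2, chr2:163506607-163506856: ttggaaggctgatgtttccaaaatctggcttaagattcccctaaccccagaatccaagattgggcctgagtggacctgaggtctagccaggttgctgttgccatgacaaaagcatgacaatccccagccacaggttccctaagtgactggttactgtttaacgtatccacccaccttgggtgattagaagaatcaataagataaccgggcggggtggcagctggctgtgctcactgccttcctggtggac
Hnf4a P1, chr2:163546905-163547154: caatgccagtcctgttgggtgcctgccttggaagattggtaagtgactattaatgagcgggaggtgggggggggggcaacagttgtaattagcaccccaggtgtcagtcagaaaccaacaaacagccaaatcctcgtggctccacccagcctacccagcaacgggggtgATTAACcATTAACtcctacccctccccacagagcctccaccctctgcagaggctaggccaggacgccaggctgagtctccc
The P1 window held 2 matches to GTTAAT, both on the minus strand and next to each other, and the P2 window held no match to either motif. Coverage of the first exon that belongs to P1 alone was 24.3 and 20.1 per Gb aligned in WT livers and 28.1 and 30.9 in null livers. Coverage of the first exon of P2 was 0.242 in WT liver replicate 1 and 0 in the other 3 livers, and both exons were at 0 in all fat libraries. Reads of Hnf4a in liver thus began at P1 in both genotypes at this depth. The deposited transcript values nevertheless put 34.9 to 71.8 FPKM per liver on a transcript annotated from the P2 exon, so the transcript split of Hnf4a was not used and only the gene sum and the private exons are given.

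Rxrg (mm10, chr1:167598362-167639623, plus strand), an RXR gene, also has an upstream and a downstream start. Its windows are shown because the use of the starts differed between fat libraries.
Rxrg upstream, chr1:167598112-167598361: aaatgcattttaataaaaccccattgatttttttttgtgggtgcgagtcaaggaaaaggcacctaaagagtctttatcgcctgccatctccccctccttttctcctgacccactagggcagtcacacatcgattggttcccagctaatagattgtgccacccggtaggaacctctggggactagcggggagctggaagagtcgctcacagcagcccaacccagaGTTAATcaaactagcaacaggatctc
Rxrg downstream, chr1:167618015-167618264: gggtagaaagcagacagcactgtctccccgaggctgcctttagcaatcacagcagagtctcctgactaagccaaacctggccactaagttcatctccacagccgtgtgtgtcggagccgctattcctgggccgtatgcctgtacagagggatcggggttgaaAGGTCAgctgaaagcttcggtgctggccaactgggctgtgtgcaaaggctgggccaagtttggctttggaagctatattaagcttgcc
The upstream window held 1 match to GTTAAT and the downstream window 1 match to AGGTCA. A match is a description of letters and not of binding. Over 46 promoters of 29 receptors with an entry, AGGTCA occurred in 6 (13%) against 14% of all 32851 promoter windows of the same length, and GTTAAT in 4 (8.7%) against 6.43%. The downstream first exon of Rxrg was covered in all libraries, at 3.26 and 3.32 per Gb in WT livers and 12.2 and 10.4 in WT fat. Upstream first exon coverage was 0 in all 4 livers and in WT fat replicate 1, 0.088 in WT fat replicate 2, 0.432 in null fat replicate 1 and 4.18 in null fat replicate 2. The upstream start of Rxrg was thus read mostly in the library that held the muscle transcripts, and the part of muscle in this was not tested.

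**Figure D2:**
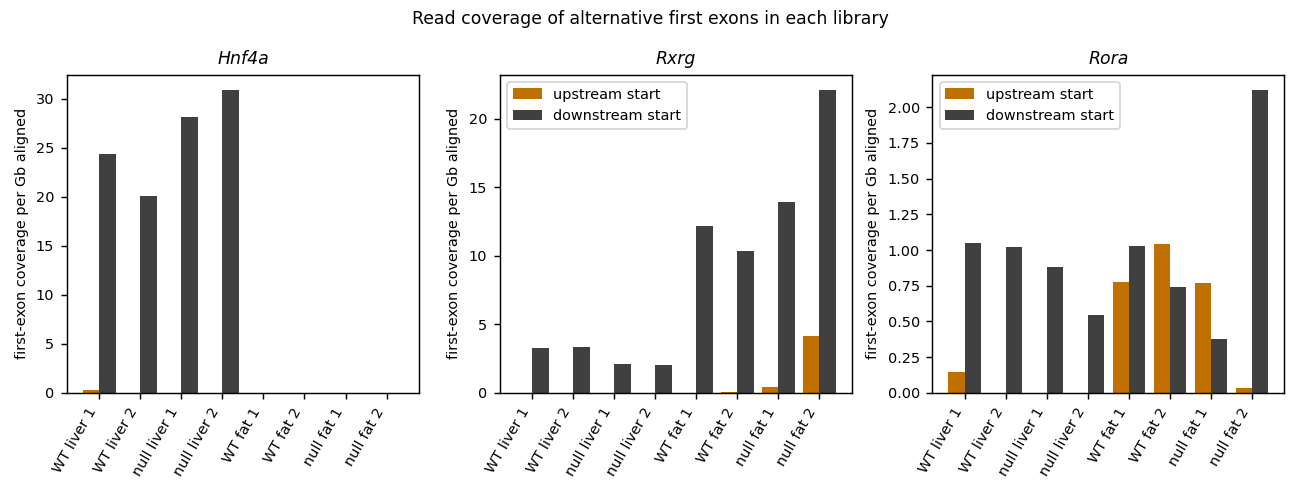
Read coverage per Gb aligned of the first exons of Hnf4a, Rxrg and Rora that belong to the upstream start (orange) or the downstream start (grey), with 1 pair of bars per library. Hnf4a was read from its downstream start in all 4 livers, and null fat replicate 2 differs from the other fat libraries for Rxrg (upstream 4.18) and Rora (upstream 0.0336).

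The RXR genes themselves had different tissue patterns. Rxra was at 88.0 and 81.1 FPKM in WT liver and at 43.3 and 37.3 in WT fat, which is 2.1-fold higher in liver (log2 difference 1.05, SE 0.11, limma adjusted p = 0.000656). Rxrb was level across the tissues, at 14.2 and 14.3 FPKM in liver and 14.6 and 16.5 in fat, with a log2 difference of -0.12 (95% interval -0.38 to 0.14) that turned to 0.53 under median-of-ratios scaling and 0.33 under quantile normalization. Rxrg was 2.54-fold higher in WT fat, at 13.8 and 14.7 FPKM against 5.75 and 5.49 in liver (log2 difference -1.21, SE 0.10, limma adjusted p = 0.000283). In both WT tissues Rxra was the most abundant of the 3, and Rxrg was the least abundant in liver but overlapped with Rxrb in fat.

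Among the lipid and vitamin receptors, Ppard, a fatty acid sensor that promotes oxidation, was 5.34-fold higher in WT fat, at 13.4 and 12.2 FPKM against 2.35 and 2.45 in liver. Rora, a clock and lipid regulator, was at 5.29 and 4.48 FPKM in liver and 5.79 and 5.09 in fat, and its log2 difference of -0.13 turned to 0.45 under median-of-ratios scaling and 0.47 under quantile normalization. The gene sum of Rora hid a difference in starts. Its upstream first exon was covered at 0.779 and 1.04 per Gb in WT fat against 0.147 and 0 in WT liver, while the downstream first exon gave 1.03 and 0.738 in fat and 1.05 and 1.02 in liver. Vdr, the vitamin D receptor, was nearly unread, at 0.161 and 0.137 FPKM in WT fat and at 0.0364 and 0 in WT liver.

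Retinoic acid receptors were all read in both tissues. Rarg was 5.38-fold higher in WT fat, at 13.3 and 13.2 FPKM against 2.95 and 1.96 in liver (log2 difference -2.06, SE 0.16, limma adjusted p = 0.000276). Rara was at 10.9 and 12.4 FPKM in WT fat and 7.86 and 7.35 in WT liver, a log2 difference of -0.56 that turned to 0.072 under median-of-ratios scaling. Rarb, itself a known target of retinoic acid, was at 2.49 and 1.68 FPKM in liver and 2.12 and 2.24 in fat, with overlapping groups and a log2 difference of -0.06 that turned to 0.42 under median-of-ratios scaling and 0.55 under quantile normalization. Rarg and Rara overlapped neither with Rarb nor with each other in WT fat, where Rarg was highest.

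On FPKM as deposited, thyroid hormone receptors divided between a fat-high and an even gene. Thra was 4.12-fold higher in WT fat, at 40.7 and 41.0 FPKM against 8.20 and 11.6 in liver (log2 difference -1.96, SE 0.17, limma adjusted p = 0.000347). Thrb, the main thyroid hormone receptor of hepatocytes, was at 4.76 and 3.97 FPKM in liver and 4.23 and 3.64 in fat, with overlapping groups. Its log2 difference of 0.12 became 0.68 under median-of-ratios scaling and 0.73 under quantile normalization. Under both scalings Thrb was called higher in liver (limma adjusted p = 0.00848 and 0.00582). Within both WT tissues the gene sum of Thra was above that of Thrb in FPKM. The gene value of Thra (mm10, chr11:98741785-98769006, plus strand) includes an exon of 850 bases that overlaps Nr1d1 on the minus strand by 263 bases, and reads of these genes cannot be told apart where they overlap. The exons of Thra alone were covered at 25.4 and 25.6 per Gb in WT fat and at 4.98 and 4.53 in WT liver, so the fat-high pattern was also present there. The overlapping exon was less even, at 9.05 and 20.4 in the WT livers. Exon coverage of Thra and FPKM of Thrb are different measures. Whether Thra lay above Thrb in liver without the overlapping exon therefore cannot be read from these values.

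Steroid and oestrogen-related receptors were low to moderate. Esr1, oestrogen receptor alpha, was at 3.03 and 3.44 FPKM in WT fat and 1.71 and 2.02 in WT liver, a log2 difference of -0.57 that turned to 0.067 under quantile normalization. Nr3c2, the mineralocorticoid receptor, was at 2.85 and 2.36 FPKM in liver and 1.94 and 1.96 in fat, without overlap but without a call (log2 difference 0.29, 95% interval -0.01 to 0.58). Pgr, the progesterone receptor, did not exceed 0.00969 FPKM in any library. Esrra, a driver of mitochondrial genes, was at 19.0 and 24.7 FPKM in WT fat and 14.8 and 13.2 in WT liver, a called log2 difference of -0.60 that turned to 0.056 under median-of-ratios scaling. Its relatives were scarce, with Esrrb at 0.317 and 0.239 FPKM in liver and at most 0.0408 in fat, and Esrrg at 1.06 and 0.918 in fat and 0.718 and 0.536 in liver.

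The NR4A receptors, immediate-early genes that respond to stress and to hormone and nutrient signals within a short time, were uneven between libraries. Nr4a1 was at 77.2 and 4.45 FPKM in WT fat and at 6.62 and 4.93 in WT liver. Its null libraries were as uneven in fat, at 4.16 and 54.9 FPKM, and close together in liver, at 4.75 and 7.69. The high fat libraries were thus replicate 1 of the WT and replicate 2 of the null mice, and Nr4a1 was 25.5% and 18.4% of the receptor sum there. Nr4a2 and Nr4a3 were also highest in WT fat replicate 1, at 2.53 and 1.19 FPKM, but in null fat replicate 2 they were at only 0.754 and 0.0887. Nr4a1 overlapped between genotypes in both tissues, and the 95% interval of its log2 difference between WT tissues ran from -4.85 to 1.61. Without WT fat replicate 2, the low library, the log2 difference of Nr4a1 was -3.54. Without WT fat replicate 1, the high library, it was 0.30, so the direction depended on which fat library was kept. Nr4a3 was lower in the null mice without overlap in both tissues, at 0.0115 and 0.0222 FPKM against 0.330 and 0.0826 in the WT livers and at 0.0974 and 0.0887 against 1.19 and 0.344 in WT fat. Nr4a2 was likewise lower in liver, at 0.269 and 0.243 FPKM in the null against 0.672 and 0.566 in the WT mice, and in fat the null values of 1.25 and 0.754 overlapped with the WT values of 2.53 and 0.999. Both genes were higher in WT fat than in WT liver without overlap. Except for Nr4a2 between the fat groups, which was not called, these differences of Nr4a2 and Nr4a3 lay below the filter and were not tested.

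Of the orphan receptors, Nr2f6, a repressor also called EAR2, was the most abundant. It was at 53.9 and 58.4 FPKM in WT liver and 18.3 and 20.0 in WT fat, which is 2.93-fold higher in liver (log2 difference 1.5, SE 0.10, limma adjusted p = 0.000133). Nr2f2, which encodes COUP-TFII, was at 8.64 and 6.49 FPKM in liver and 4.76 and 5.04 in fat, and its relative Nr2f1 at 0.585 and 0.313 in liver and 1.45 and 1.21 in fat. Nr6a1, germ cell nuclear factor, was at 1.93 and 1.63 FPKM in liver and 0.590 and 0.698 in fat. Nr2c1, testicular receptor 2, was at 3.74 and 3.42 FPKM in liver and 3.63 and 3.71 in fat, a log2 difference of -0.03 that turned to 0.51 under median-of-ratios scaling and 0.59 under quantile normalization. Nr2c2, testicular receptor 4, was uneven within every group, at 3.31 and 2.10 in WT liver and 4.91 and 2.03 in WT fat, a log2 difference of -0.21 that turned to 0.30 and 0.40 under these scalings. Of its exon bases 43.7% are shared with Mrps25 on the opposite strand, all in an exon of 5600 bases. That exon was covered at 5.59 and 1.76 per Gb in WT fat and 1.55 and 5.07 in null fat, whereas the exons of Nr2c2 alone were covered at 2.46 and 2.27 in WT fat and 1.82 and 2.12 in null fat. Mrps25 was at 5.61 and 9.73 FPKM in WT fat and 10.7 and 4.62 in null fat, in the opposite order to the gene sum of Nr2c2. The spread of the Nr2c2 sum within groups therefore lay in the shared exon.

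**Figure D3:**
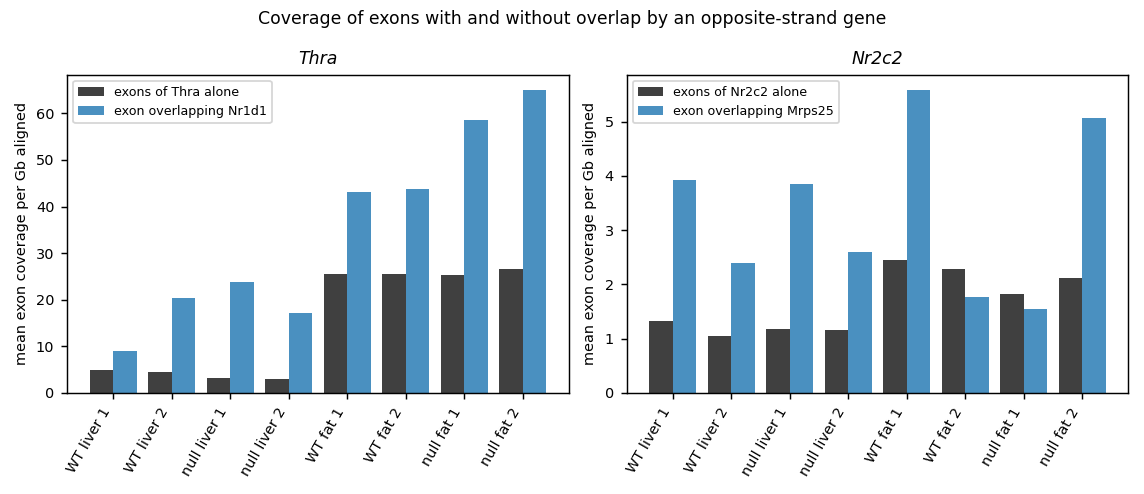
Mean coverage per Gb aligned over exons of Thra and Nr2c2 without (grey) and with (blue) bases shared with a gene of the opposite strand, with 1 pair of bars per library. Coverage without sharing was even within groups (Nr2c2 1.82 to 2.46 in fat), while the shared exon of Nr2c2 ranged from 1.55 to 5.59 there.

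In liver, MKRN1-null mice had higher Hnf4a and Thrb and lower Rxrg than WT mice. Of the 23 receptors tested, these 3 were called, against 19.5% of all 10808 genes tested, and 12 of the 23 did not overlap between genotypes, against 69.3% of all genes. In each direction the receptors were 2 higher and 1 lower, where all genes were 2.52% higher and 16.9% lower. The median log2 difference, null minus WT, was 0.00 for the receptors and -0.17 for all genes. All 3 calls were close to the threshold and none held in all alternatives. A single library left out ended the calls of Hnf4a and Thrb whichever of the 4 it was, and that of Rxrg for 3 of the 4. Without null replicate 2 no receptor was called and 52 of all genes were.

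Hnf4a was at 112 and 97.5 FPKM in the WT and 145 and 158 in the null livers, without overlap. The rise was 1.45-fold (log2 difference 0.53, SE 0.11, limma adjusted p = 0.0354), and the P1 first exon covered above moved in the same direction. With the replicate number as a block the limma adjusted p was 0.063 at the same size of change. Thrb was at 4.76 and 3.97 FPKM in the WT and 6.34 and 7.47 in the null livers, a 1.58-fold rise (log2 difference 0.56, SE 0.13, limma adjusted p = 0.0444, or 0.0729 with the block). Rxrg was at 5.75 and 5.49 FPKM in the WT and 3.34 and 2.32 in the null livers, a fall to a level 1.99-fold lower (log2 difference -0.80, SE 0.15, limma adjusted p = 0.0314, or 0.0335 with the block). Its downstream first exon went from 3.26 and 3.32 per Gb to 2.09 and 2.03. Under median-of-ratios scaling Hnf4a and Thrb were called with log2 differences of 0.74 and 0.73, and Rxrg had -0.64 with a limma adjusted p of 0.0655.

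Further members lay outside the WT range without a call. Rxra, a heterodimer partner of several of these receptors, was at 104 and 107 FPKM in the null against 88.0 and 81.1 in the WT livers (log2 difference 0.32, 95% interval 0.10 to 0.54, limma adjusted p = 0.0602), and under median-of-ratios scaling it was called (0.52, limma adjusted p = 0.0292). Rarb was at 0.910 and 1.17 FPKM against 2.49 and 1.68, within the study limits with Rxrg as 2 of 23 receptors against 15.6% of all genes (log2 difference -0.59, 95% interval -1.02 to -0.16, limma adjusted p = 0.0677). The log2 difference of Rarb was -0.78 without WT replicate 2 and -0.40 without WT replicate 1. Rarg, Esr1, Nr3c2, Ppard, Nr2c1 and Nr2f6 were also lower in both null livers than in both WT livers, with log2 differences from -0.43 for Rarg to -0.08 for Ppard. Ppard turned to 0.06 under median-of-ratios scaling and 0.18 under quantile normalization, and Esr1 to 0.025 under quantile normalization. Rxrb was higher in both null livers, at 14.7 and 16.0 FPKM against 14.2 and 14.3 (log2 difference 0.10). Nr2f6 was at 48.9 and 43.6 FPKM against 53.9 and 58.4 (log2 difference -0.28), a gap that shrank to -0.07 under median-of-ratios scaling.

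The xenobiotic receptors were not called by genotype in liver with all libraries in the fit. Nr1i3 was at 97.7 and 101 FPKM in the null livers, between the WT values of 105 and 50.2 (95% interval of the log2 difference -0.45 to 1.34). Without WT replicate 1 the log2 difference of Nr1i3 was 0.97, and without WT replicate 2 it was -0.08. Nr1i2 was at 37.8 and 30.2 FPKM against 33.2 and 25.9 (-0.24 to 0.64), and Nr5a2 at 8.77 and 9.11 against 10.3 and 7.63 (-0.38 to 0.40). The intervals of Nr1i3 and Nr1i2 include a change of the size called for Hnf4a, so 2 libraries a group do not show that their levels were alike. For Thra the gene sums overlapped, at 11.4 and 9.0 FPKM in the null against 8.20 and 11.6 in the WT livers, but its exons without overlap were covered at 3.20 and 3.03 per Gb in the null against 4.98 and 4.53 in the WT livers. The exon that overlaps Nr1d1 was at 23.8 and 17.2 per Gb in the null livers against 9.05 and 20.4 in the WT livers, and Nr1d1 itself at 74.6 and 61.4 FPKM against 36.6 and 42.1. The exon values were not tested, and the sum of Thra mixes exons that differed in opposite directions between WT replicate 1 and the null livers.

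Marker lists of other cell types moved with the same contrast in liver. The 6 stellate cell and fibroblast markers summed to 184 and 135 FPKM in the WT and 57.6 and 62.1 in the null livers, with 3 of 6 called lower, and the 5 endothelial markers to 50.6 and 32.4 against 20.4 and 23.6, with 1 of 5 called lower. The 6 macrophage markers summed to 91.7 and 43.1 FPKM in WT and 39.6 and 45.9 in null livers, with 3 of 6 called lower, whereas 3 of 7 hepatocyte markers were called higher. The 5 markers of bile duct and other epithelium summed to 8.86 and 6.41 FPKM in the WT and 1.76 and 1.43 in the null livers, with all 3 tested called lower, Krt14 at 0 in every liver and Krt5 in all but WT replicate 1. The 7 adipocyte markers, mainly Cidec and Fabp4 here, summed to 150 and 148 FPKM against 52.9 and 22.6, with 2 of 3 tested called lower. Adipoq, Plin1, Lep and Retn did not exceed 0.225 FPKM in any liver. Cfd was at 5.50 and 16.7 FPKM in the WT and 23.5 and 6.79 in the null livers. The lower sum thus came from Cidec and Fabp4 and not from the adipocyte list as a whole. Brown adipocyte markers (26.1 and 65.7 against 4.45 and 1.13 FPKM, mainly Cidea, with Ucp1 and Dio2 at 0 in every liver) and lymphocyte markers (5.82 and 4.16 against 2.15 and 2.40) were also lower. Of the stellate, endothelial, macrophage and hepatocyte markers only Gpnmb, a macrophage gene, was at 0 in a liver (null replicate 2). The part of these cells in the lower Rxrg and Rarb, in the higher Hnf4a and Thrb and in the lists of receptor partners and targets was not tested.

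**Figure D4:**
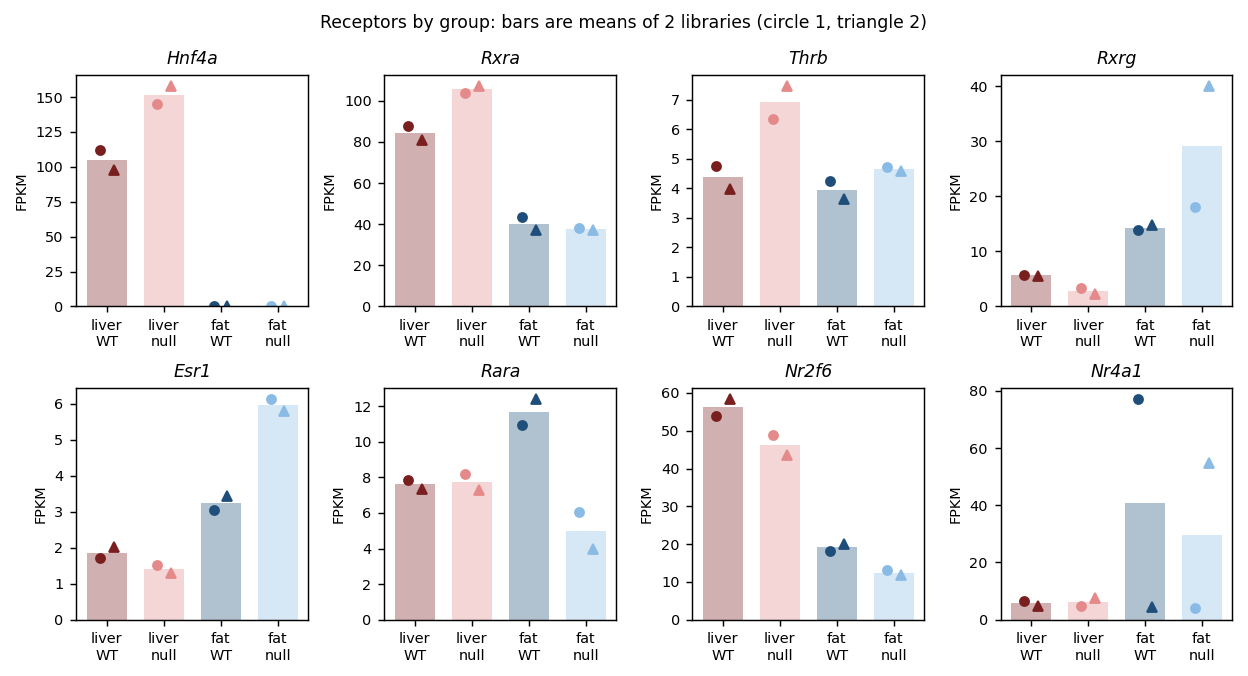
FPKM of 8 receptors in the 4 groups, where bars are means of 2 libraries, circles replicate 1 and triangles replicate 2. Hnf4a and Thrb lie higher and Rxrg lower in null liver, Esr1 lies higher and Rara lower in null fat, and Nr4a1 is high in 1 library of each fat group.

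In subcutaneous fat no receptor was called among the 20 tested, as for all 12149 genes tested (0%), by limma with p adjusted over all genes. At an unadjusted p under 0.05 there were 3 receptors and 783 genes. These 3 were Rara, Esr1 and Nr2f6, and they also met the study limits, against 6.06% of all genes tested. The genotypes did not overlap for 10 of the 20, against 45.2% of all genes. The median log2 difference, null minus WT, was -0.13 for the receptors and -0.20 for all genes. Without null replicate 1, so that the library with the muscle transcripts stood alone for the null mice and was assumed to vary like the WT libraries, 6 receptors and 6300 genes were called, and without null replicate 2 there were 0 receptors and 3 genes.

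Rara was at 6.03 and 3.97 FPKM in null fat against 10.9 and 12.4 in WT fat, without overlap and 2.34-fold lower (log2 difference -1.10, 95% interval -1.77 to -0.43, limma adjusted p = 0.68). Without null replicate 2 its log2 difference was -0.85. Coverage of the long first exon of the Rara transcript with the downstream start was 3.08 and 3.06 per Gb in WT fat and 1.80 and 0.604 in null fat. Esr1 was at 6.13 and 5.80 FPKM in null fat against 3.03 and 3.44, 1.84-fold higher (log2 difference 0.72, 95% interval 0.22 to 1.22, limma adjusted p = 0.68), and without null replicate 2 the log2 difference was 0.75. Esr1 was thus as far apart without the muscle-containing library as with it. Nr2f6 was at 13.1 and 11.8 FPKM against 18.3 and 20.0 (log2 difference -0.58, 95% interval -1.14 to -0.03, limma adjusted p = 0.68), which was -0.51 without null replicate 2 and -0.36 under median-of-ratios scaling.

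Rxrg was uneven between the null fat libraries. It was at 18.1 and 40.1 FPKM in null fat against 13.8 and 14.7 in WT fat, all null values above all WT values, with a log2 difference of 0.88 (95% interval -0.21 to 1.96) that was 0.32 without null replicate 2. Its downstream first exon was covered at 13.9 and 22.1 per Gb in null fat against 12.2 and 10.4, so the higher Rxrg of replicate 2 was read from both starts. Rora was at 4.81 and 8.74 FPKM against 5.79 and 5.09, and its log2 difference of 0.23 became -0.15 without null replicate 2. In that library the upstream first exon of Rora was covered at 0.0336 per Gb, against 0.772 to 1.04 in the other 3 fat libraries, and the downstream first exon at 2.12 against 0.379 to 1.03.

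Ppard was at 9.75 and 9.44 FPKM in null fat against 13.4 and 12.2, without overlap (log2 difference -0.38, 95% interval -0.91 to 0.15, and -0.36 without null replicate 2). Nr2f2 was at 4.14 and 3.06 FPKM against 4.76 and 5.04, and Nr2f1 at 1.15 and 0.660 against 1.45 and 1.21, also without overlap, with log2 differences of -0.20 and -0.11 without null replicate 2. Thra was at 45.7 and 49.2 FPKM against 40.7 and 41.0, yet its exons without overlap were covered at 25.3 and 26.5 per Gb against 25.4 and 25.6. The gap of Thra in fat lay in the exon that overlaps Nr1d1 in part, at 58.6 and 65.1 per Gb against 43.1 and 43.7. The deposited values put 38.0 and 39.2 FPKM on Thra transcript NM_001313983 in null fat against 29.8 and 31.1 in WT fat. On NM_178060 they put 7.65 and 10.1 FPKM against 10.9 and 9.89. The parts of transcript use and of Nr1d1 reads in this gap were not tested. Thrb was at 4.70 and 4.57 FPKM against 4.23 and 3.64 (log2 difference 0.19, 95% interval -0.31 to 0.70, and 0.21 without null replicate 2). Rxra, Rxrb, Rarb, Rarg, Esrra and Nr3c2 overlapped between the genotypes, and Hnf4a, Nr1i2 and Nr1i3 remained at or below 0.193 FPKM in null fat.

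The muscle markers were not the only ones to differ in null fat replicate 2. Its 7 adipocyte markers summed to 22446 FPKM against 36003 to 46824 in the other fat libraries, Ucp1, the uncoupling protein of brown fat, was at 32.6 FPKM against 0.0539 to 0.675, and macrophage markers summed to 61.4 against 225 to 375. In null fat replicate 1 the muscle markers summed to 28.7 FPKM, below both WT libraries (34.1 and 199), with Ckm and Myh4 at 0. Endothelial markers summed to 119 and 65.4 FPKM in null against 151 and 194 in WT fat, with 3 of 4 tested lower and 1 higher by the study limits. Hepatocyte markers summed to 463 and 302 FPKM in null against 46.0 and 79.6 in WT fat, with 2 of 3 tested higher by the study limits, and most of the sum was Cyp2e1 (451 and 278 against 40.3 and 72.7). The part of muscle and brown fat transcripts in Rxrg, Rora and Nr4a1 of replicate 2, and that of endothelial and other cells in Rara, Esr1 and Nr2f6, was not tested.

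**Figure D5:**
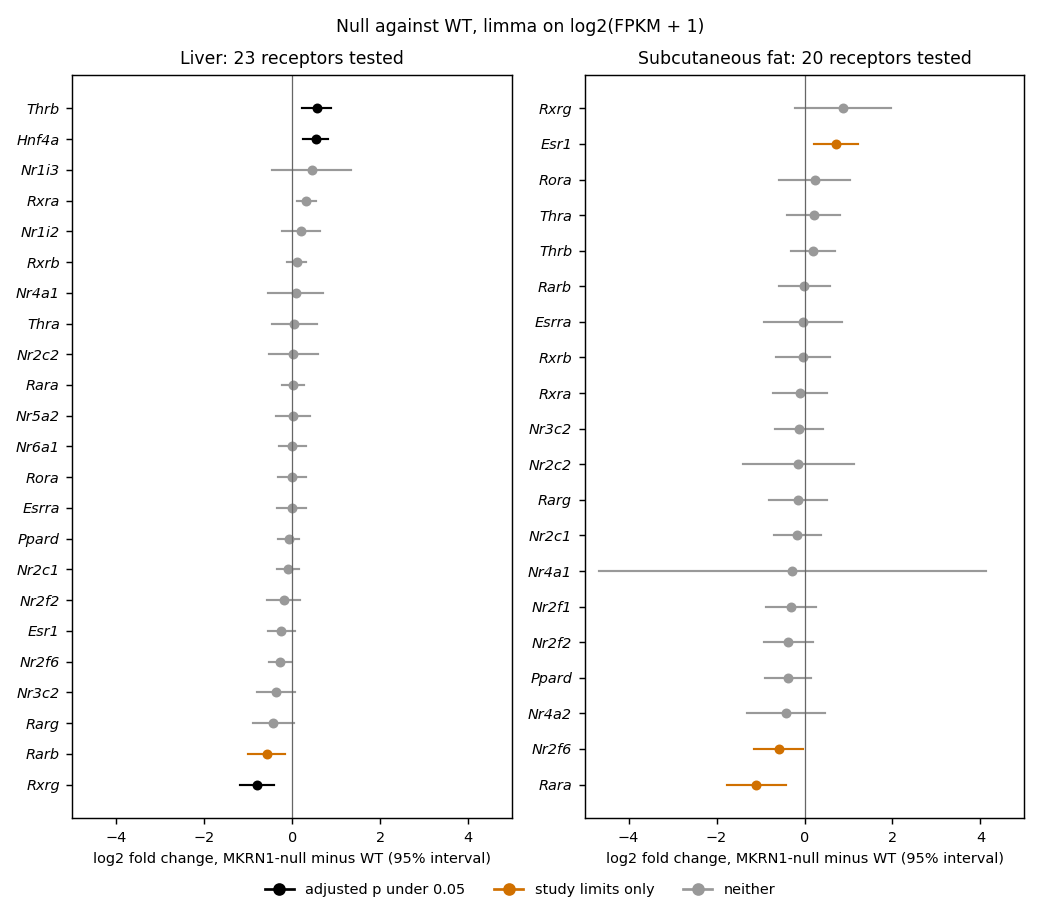
Log2 fold change, MKRN1-null minus WT, with its 95% interval from limma for the 23 receptors tested in liver and the 20 tested in subcutaneous fat, sorted by size. Black marks an adjusted p under 0.05 (Thrb, Hnf4a and Rxrg in liver), orange the study limits only (Rarb in liver, Rara, Esr1 and Nr2f6 in fat), and grey neither.

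The difference between the genotype effects of the tissues was tested directly for the 18 receptors measured in both. By limma 0 of 18 receptors and 0 of 9905 genes were called (0%), with 3 receptors and 766 genes at an unadjusted p under 0.05. These 3 receptors were within the study limits, against 6.47% of all genes. The log2 difference, liver minus fat, was 1.12 for Rara (limma adjusted p = 0.443), -0.97 for Esr1 (limma adjusted p = 0.344) and -1.68 for Rxrg (limma adjusted p = 0.505). Rara in liver was at 8.19 and 7.29 FPKM in null against 7.86 and 7.35 in WT mice, so only its fat values separated. Without null fat replicate 2 the log2 difference was -1.0 for Esr1, -1.12 for Rxrg and 0.87 for Rara. Without null fat replicate 1 it was -0.93 for Esr1, -2.23 for Rxrg and 1.37 for Rara.

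Genes that act with these receptors were counted from lists. Of 25 coregulators tested in each tissue, none was called by limma between genotypes, with 6 at an unadjusted p under 0.05 in liver and 0 in fat, where all genes had 4274 of 10808 and 783 of 12149. The lists below are read against the 16.9% of all liver genes called lower and the 2.52% called higher. In liver 3 of 15 retinoid handling genes were called lower and none higher (1 higher by the study limits, Cyp26a1). Among them were the retinaldehyde dehydrogenase relatives Aldh1a7, at 86.3 and 57.6 FPKM in the null against 126 and 153 in the WT livers (log2 difference -0.97), and Aldh1a1, at 589 and 509 against 796 and 936 (log2 difference -0.66). In fat Aldh1a1 was at 102 and 108 FPKM in null against 57.3 and 51.7 in WT mice, within the study limits only (log2 difference 0.94, limma adjusted p = 0.68). Of 8 thyroid hormone handling genes tested in liver 2 were called lower, Serpina7, the thyroxine-binding globulin, at 37.3 and 24.5 FPKM against 87.7 and 99.4, and Slc7a8, an amino acid transporter that also carries thyroid hormone, at 0.604 and 0.886 against 2.41 and 1.99. Thrsp, a thyroid hormone and carbohydrate responsive gene, was at 255 and 198 FPKM against 522 and 346, within the study limits (limma adjusted p = 0.0576). In fat Hr, a corepressor induced by thyroid hormone, was within the study limits at 12.7 and 16.4 FPKM against 26.2 and 21.3.

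Of 22 targets of the xenobiotic receptors tested in liver, 9 were called lower and 2 higher, where 87.1% of all called genes were lower (16.9% of all genes tested lower and 2.52% higher). They had a median log2 difference of -0.76 against -0.17 for all genes. Gsta1, a glutathione transferase, was at 1.21 and 0.770 FPKM in the null against 23.0 and 22.2 in the WT livers (log2 difference -3.58, SE 0.13, limma adjusted p = 0.00309). Cyp2b9, a CAR-responsive cytochrome in mice, was at 11.2 and 13.4 FPKM against 149 and 49.2, and Gstm3, another glutathione transferase, at 20.8 and 12.5 against 98.3 and 103. In fat Sult1e1, an oestrogen sulfotransferase, was at 23.3 and 9.5 FPKM in null against 2.23 and 4.18 in WT mice, within the study limits only (log2 difference 1.97, limma adjusted p = 0.68).

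HNF4A targets went both ways in liver, where Hnf4a rose. Of 19 tested, 3 were called higher and 4 lower, against 2.52% and 16.9% of all genes, with a median log2 difference of 0.04. F7, coagulation factor VII, was at 52.1 and 59.3 FPKM in the null against 31.5 and 27.2 in the WT livers (log2 difference 0.90). G6pc, the last enzyme of glucose production, was at 97.0 and 134 FPKM against 366 and 243 (log2 difference -1.38), and Apoc2, a cofactor of lipoprotein lipase, at 340 and 283 against 642 and 697 (log2 difference -1.11). Of 8 vitamin D and steroid handling genes tested in liver none was called by limma (2 at an unadjusted p under 0.05), and Hsd17b2, which inactivates oestradiol and testosterone, was within the study limits at 95.6 and 118 FPKM in the null against 61.6 and 79.4 in the WT livers. Among 12 other nuclear receptors tested in liver 1 was called higher and 1 lower, and in fat none of 9 was called by limma (1 at an unadjusted p under 0.05).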

How the data were processed

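Poly(A) RNA of 2 WT and 2 MKRN1-null mice per tissue was sequenced, and a file of transcript values was deposited per library. The deposited FPKM, TPM and coverage (another unit, kept as text attributes) were made by the authors with HISAT2, SAMtools and StringTie 1.3.3b on mm10 per the labels and file headers, and the versions of the other programs were not given in the sources used here. In contrast, the methods of the paper describe TopHat2, Cufflinks and HTSeq instead. The values were not counts, so no count test was used. FPKM was summed over 36780 transcripts by gene, and 70 of 24532 gene IDs without a symbol in the RefSeq table were left out.

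The log2 of FPKM plus a pseudocount of 1 was fitted with limma 3.58.1 in R 4.3.3 (lmFit, and eBayes with a trend), each tissue by itself, the WT libraries for the tissue pattern, and all 8 for the difference between tissues. A gene needed an FPKM of 1 in 2 libraries of the fit (in 2 of each tissue for the difference between tissues), and p was adjusted by the Benjamini-Hochberg method over all genes tested. The limits of p and fold are those of the paper, whose own P was computed differently. The fit was tested on simulated data with 200 changed genes. Aligned bases per library were taken from the ratio of coverage to FPKM of a transcript, and exon coverage was divided by them. Promoter motifs were sought on both strands of the 250 bases upstream of each start in a RefSeq table of GRCm38.p6, and the capitals follow those matches. Tables and figures were made with Python 3.11.15, pandas 2.3.3, numpy 2.4.6 and matplotlib 3.10.9.

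The labels do not say whether replicates came from separate litters, and the p-values measure the spread between these samples. Liver and fat libraries of a genotype share numbers in the deposited names, which do not say whether a shared number means 1 mouse. The deviations of same-numbered libraries correlated at 0.05 in WT and 0.12 in null mice. A fit with that number as a block was also run. Between WT and null libraries of the same number the correlation was 0.03 in both tissues. The members, gene lists and tests were chosen with earlier results of these data known. All members are named. From each other list up to 3 genes per comparison with the largest change past the adjusted threshold, or past the study limits where fewer than 3 passed it, are named, and cell type markers come from fixed lists. The result of 1 gene of these lists is not reported here. The overlap partners Nr1d1 and Mrps25 and the markers Ucp1, Ckm and Myh4 were picked out after their values were seen. Alternatives were a pseudocount of 0.1, TPM, median-of-ratios scaling, quantile normalization, a stricter filter (FPKM of 5) or none, no trend, a replicate block, 1 fit of all 8 libraries and leaving out each library.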

Additional observations from a re-analysis of the deposited data

Results flagged for a closer look

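Rxrg and Esr1 were picked out because both null libraries lay on the opposite side of both WT libraries in liver and in fat, lower in liver and higher in fat. The difference of the log2 fold changes, liver minus fat, was -1.68 for Rxrg (limma adjusted p of the interaction = 0.505) and -0.97 for Esr1 (limma adjusted p = 0.344), so neither passed the adjustment over all genes. For Rxrg the value was -1.12 without null fat replicate 2, the library with the muscle transcripts, and for Esr1 it was -1.0. In liver alone Esr1 was not called (log2 difference -0.25, limma adjusted p = 0.179). That liver difference was -0.12 under median-of-ratios scaling and 0.025 under quantile normalization, so its direction depended on the scaling.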

How the results depend on the processing

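Each tissue comparison rests on 2 libraries a group without counts, so scarce receptors (FPKM under 1) carry values only. Between WT tissues, 10 to 14 receptors were called when a library was left out (8 to 14 by the study limits), against 16 and 13. Without either WT liver library 10 were called, as liver-restricted genes then failed the filter of 2 libraries, and without a WT fat library 14 and 13 were, as Nr2f1 failed it and Nr2f2 (either library), Esr1 and Esrra (replicate 2) missed the threshold while Nr4a1 passed it without replicate 2. Directions turned for Rxrb (0.53), Rora (0.45), Rara (0.072), Rarb (0.42), Esrra (0.056), Nr2c1 (0.51) and Nr2c2 (0.30) under median-of-ratios scaling and for Rxrb (0.33), Rora (0.47), Rarb (0.55), Esr1 (0.067), Nr2c1 (0.59) and Nr2c2 (0.40) under quantile normalization, where the median of all genes was moved to near 0 by construction. In liver the number of receptors called fell from 3 to 1 without a filter and to 1, Rxrg, with the replicate block. Without a filter the 1 called was another receptor, as Hnf4a, Thrb and Rxrg had limma adjusted p of 0.0524, 0.0727 and 0.0579. In the fit of all 8 libraries 0 were called (1 by the study limits), and a filter at an FPKM of 5 left 1 by the study limits. Leaving out a library gave 0 to 1 calls (2 to 4 by the study limits). The cause was not tested. Scaling moved the direction of all calls, with 87.1% of called liver genes lower as deposited, 65.3% with median-of-ratios scaling and 63.2% with quantile normalization, and 77.7%, 50.7% and 57.1% of those called between WT tissues. The share of lower genes by the study limits in fat was 88.3%, 76.7% and 74.1%. In fat, leaving out a library gave 0 to 6 calls (1 to 5 by the study limits), and in the difference between tissues 0 to 3 (3 to 5 by the study limits). Over all genes, calls in liver ranged from 52 to 3120 across the alternatives against 2103, and 422 genes were called in fat with the replicate block against 0. The replicate block changed no other call of a receptor than those of Hnf4a and Thrb in liver.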
